A study of Mus musculus with 24 samples.

Results

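The 10 genes described here belong to the pathway by which fibroblast growth factors activate the kinase ERK, and to the genes that this pathway switches on to dampen itself. They are the ligand gene Fgf4, the receptor genes Fgfr1 and Fgfr2, the inhibitor genes Spry2, Spry4, Dusp4 and Dusp6, and the transcription factor genes Etv4, Etv5 and Egr1. They were taken by symbol from a table of 54242 genes, all 10 were found, and all 10 were among the 16447 genes that passed a filter on low values, a mean of at least 0.5 on the log2 scale over all libraries. RNA-Seq was performed on 24 libraries of CGR8 cells, a mouse embryonic stem cell (ESC) line, in 8 groups of 3 libraries that the labels call independent triplicates. Cells were transfected with a pool of non-targeting siRNAs (si-CTL) or with a pool targeting Rsl24d1 (si-Rsl24d1), which encodes a factor of large ribosomal subunit assembly. In the rescue groups doxycycline induced an ectopic RSL24D1 protein, whether or not Rsl24d1 was depleted, and the cells without rescue are labelled as carrying an empty vector. The study describes, for other assays, a single inducible line kept without or with doxycycline, and the sources do not settle which holds here. Day 0 cells grew in serum with LIF, and day 4 cells were treated with 10 nM retinoic acid (RA) for 4 days. All libraries are of a single cell line, the labels disagree on collection (72 h in the design, 48 h in the descriptions of day 0 samples) and on whether LIF was kept during RA treatment, and the sequences of the siRNA pools were not used here.

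FGF4 is secreted by ESCs themselves and binds the receptor tyrosine kinases FGFR1 and FGFR2, which act through the adaptors FRS2 and GRB2, through RAS and through the kinases RAF and MEK to phosphorylate ERK. Active ERK raises the transcription of Egr1, an immediate early gene, and of the ETS family genes Etv4 and Etv5. It also raises Sprouty genes, whose products restrain signalling between the receptor and RAF, and Dusp genes, whose products are phosphatases that remove the activating phosphates from ERK. In mouse ESCs this autocrine loop is known for preparing cells to leave self-renewal, which LIF and MEK inhibition favour. The files hold mRNA levels only, and phosphorylated ERK was not analysed here.

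The comparisons below share control libraries, so they are not independent of each other. Values were deposited as log2(TPM + 1), where TPM is a share of all transcripts of the library, scaled to a fixed total and corrected for transcript length, so levels of different genes are compared as TPM and differences between groups are given on the log2(TPM + 1) scale. TPM sum to the same total in every library, so the depth is unknown, and in bulk RNA fewer cells of a type and less RNA per cell cannot be told apart. Differences were tested with limma over all tested genes; a gene passed with an adjusted p below 0.01 (Benjamini-Hochberg, two-sided), and was called differentially expressed if it also changed more than 1.8-fold, or 0.85 on the log2 scale. Rsl24d1 itself was at 25.3% of si-CTL at day 0 without rescue and at 70.6% with rescue, and at 97.2% at day 4 without rescue, where the difference did not pass (adjusted p = 0.66). In the rescue groups this value holds endogenous and ectopic transcripts together and does not measure the knockdown. All 10 of 10 pluripotency markers were at or above 1 TPM in every group, and the summed level of 9 RA response markers was 9.02 to 9.62 TPM in the day 0 and 43.3 to 49.0 TPM in the day 4 si-CTL libraries without rescue. Some libraries were high or low as a whole. Of the 3 day 0 si-CTL libraries without rescue, replicate 1 was the highest for 10 of the 10 genes, and of the 3 day 4 si-Rsl24d1 libraries without rescue, replicate 1 was the lowest for 10 of 10. Replicate 1 of si-CTL and replicate 3 of si-Rsl24d1 with rescue at day 0 were also the highest of their groups for 10 of 10. Rescaling by median of ratios moved the median of all genes by -0.13 on the log2 scale for si-Rsl24d1 against si-CTL at day 4 and by 0.10 for day 4 against day 0 in si-CTL cells, both without rescue.

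In self-renewing si-CTL cells without rescue, the 10 genes spanned a wide range of levels. Etv5 was by far the most abundant at 143 ± 15.6 TPM (SD, n = 3). Spry2 (66.3 ± 5.16 TPM), Fgf4 (62.5 ± 3.16 TPM) and Etv4 (62.0 ± 2.28 TPM) followed, with libraries that overlapped from each gene to the next. Fgfr1 (56.5 ± 3.55 TPM) came next, below Etv4 in every library, and Fgfr1, Spry4 (47.5 ± 6.16 TPM) and Dusp4 (45.3 ± 3.78 TPM) again overlapped from each gene to the next. Below them stood, without overlap, Dusp6 (38.8 ± 3.54 TPM), Egr1 (23.8 ± 0.635 TPM) and Fgfr2 (10.8 ± 0.596 TPM), so the transcript of FGFR1 was the more abundant of the 2 receptor transcripts. After 4 days of RA the order was different. Etv5 (72.3 ± 1.92 TPM) remained first, Fgfr1 (47.4 ± 1.55 TPM) and Fgf4 (33.5 ± 0.555 TPM) came next, and Dusp4 (27.0 ± 1.54 TPM), Spry2 (23.8 ± 0.651 TPM) and Dusp6 (21.6 ± 1.26 TPM) lay in the middle. Fgfr2 was at 9.96 ± 0.724 TPM, while Egr1 (4.80 ± 0.0835 TPM), Etv4 (3.39 ± 0.290 TPM) and Spry4 (2.04 ± 0.116 TPM) were now the lowest, with no overlap between any neighbours in this order.

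**Figure D1:**
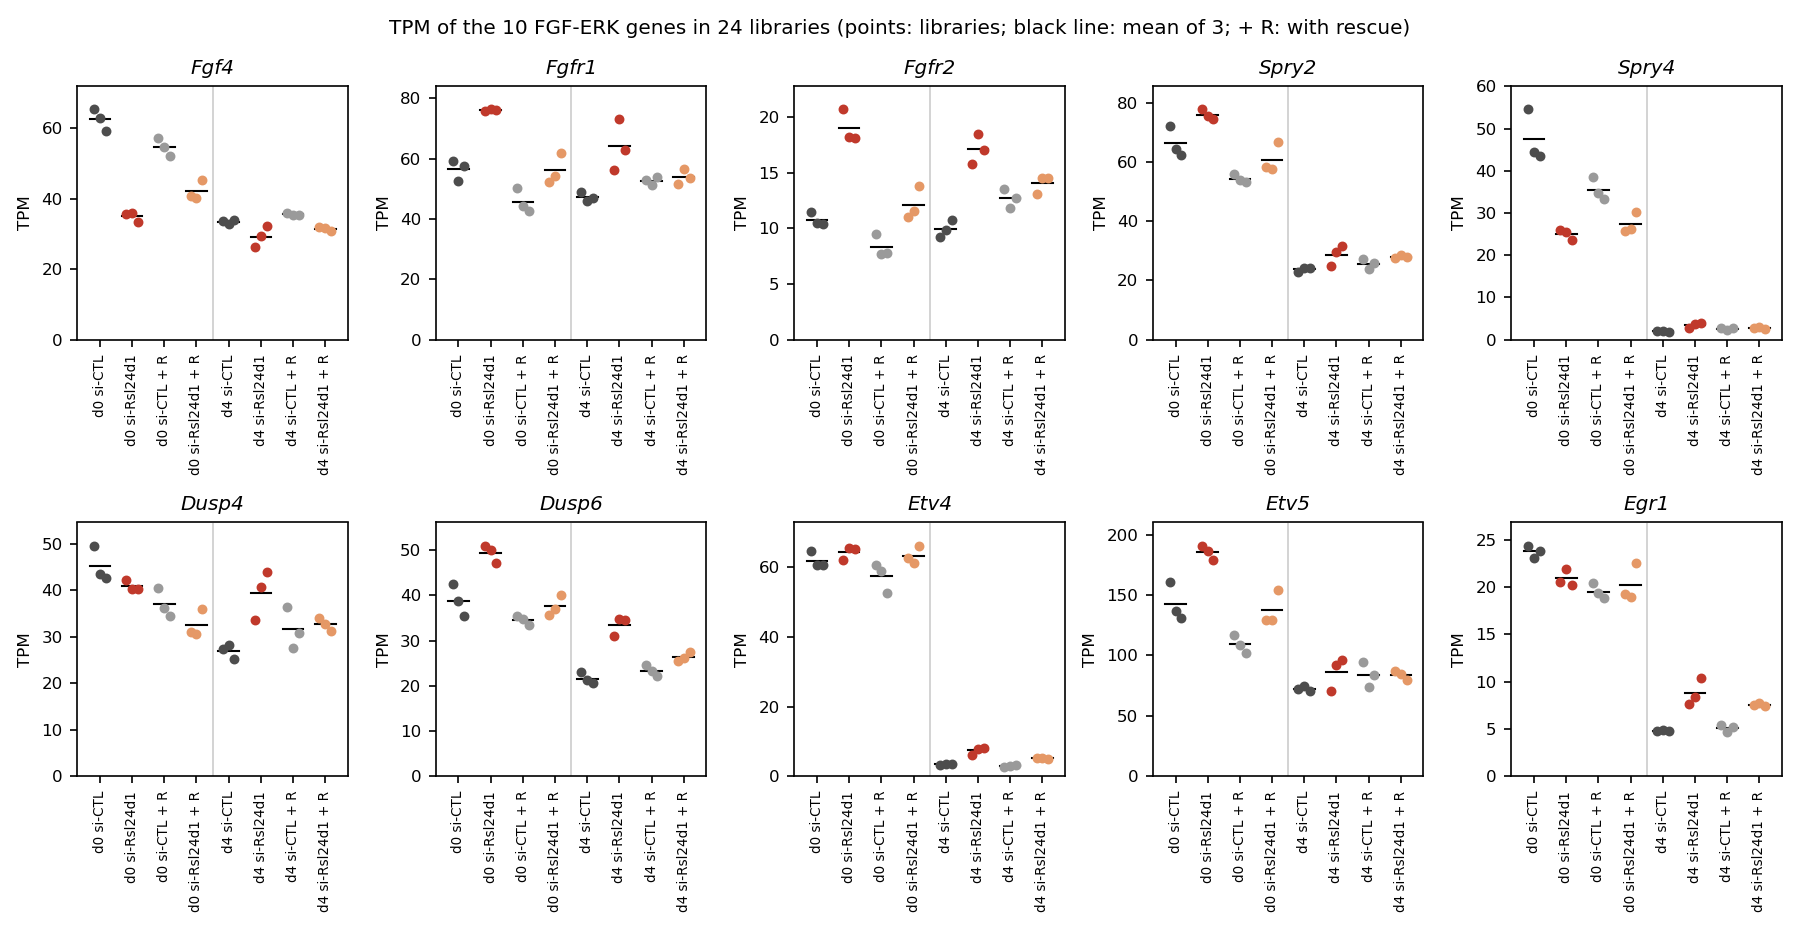
TPM (vertical axis, linear from 0, its scale differing between panels) of each of the 10 genes in the 24 libraries. Points are libraries, black lines the mean of 3, the grey line parts day 0 (d0) from day 4 (d4), and + R marks rescue. Spry4, Etv4 and Egr1 lie far lower in all 12 day 4 libraries than in the day 0 libraries, while at day 0 Fgf4 and Spry4 are lower and Fgfr1 and Fgfr2 higher in si-Rsl24d1 than in si-CTL cells without rescue.

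Dusp6 and Spry2 encode feedback inhibitors, the first acting on ERK itself and the second upstream of it. Their promoters are printed because, of the 5 genes with a promoter window, only these have it directly before the annotated start of the gene. The levels of the genes played no part in this choice. The windows are the 250 bases upstream of the start of the gene, from RefSeq on GRCm38.p6, written 5′ to 3′ on the strand of the gene, at chr10:99262981-99263230 (plus strand) for Dusp6 and chr14:105896820-105897069 (minus strand) for Spry2. Capitals mark GGAA or its reverse complement TTCC, the core of the sites that ETS family factors such as ETV4 and ETV5 recognise.
Dusp6: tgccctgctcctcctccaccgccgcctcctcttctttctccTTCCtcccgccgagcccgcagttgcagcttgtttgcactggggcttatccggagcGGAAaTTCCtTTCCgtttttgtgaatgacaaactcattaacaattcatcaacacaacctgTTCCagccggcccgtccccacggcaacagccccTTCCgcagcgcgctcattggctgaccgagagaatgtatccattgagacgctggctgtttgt
Spry2: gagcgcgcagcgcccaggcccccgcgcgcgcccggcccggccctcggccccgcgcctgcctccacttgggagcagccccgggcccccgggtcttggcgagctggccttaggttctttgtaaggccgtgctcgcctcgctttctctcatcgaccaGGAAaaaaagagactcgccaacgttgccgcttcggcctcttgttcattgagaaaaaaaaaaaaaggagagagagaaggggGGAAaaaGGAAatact
The Dusp6 window holds GGAA 6 times counting both strands, 3 of them within the longer CGGAA (or TTCCG), and CCAAT (or ATTGG) once. In the Spry2 window GGAA occurs 3 times, and neither CGGAA nor CCAAT is found. Of 32851 promoters in the same table, 93.4% hold GGAA, 25.2% CGGAA and 33.8% CCAAT in a window of this length, so a match to the core alone is found in most promoters, and these letters describe the sequence, not bound factors. Promoter windows were found for 5 of the 10 genes, the others being Fgf4, Fgfr2 and Etv5.

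Depletion of Rsl24d1 in self-renewing ESCs came with less of the ligand transcript and more of both receptor transcripts. Of the 10 genes, 6 passed at day 0 without rescue, 4 higher and 2 lower, where 30.4% of all tested genes passed, 14.3% as higher and 16.1% as lower. The only one called differentially expressed was Spry4, which was lower, where 4.18% of all genes were called, 0.772% as lower. The libraries of 9 of the 10 genes did not overlap between si-Rsl24d1 and si-CTL, and this was so for 51.1% of all tested genes.

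Fgf4, on chromosome 7 of GRCm38 from 144847367 to 144865243 (plus strand), had 65.4, 62.9 and 59.1 TPM in the si-CTL libraries and 35.7, 36.0 and 33.4 TPM in the si-Rsl24d1 libraries. All 3 depleted libraries lay far below the 3 controls, and Fgf4 fell by 0.82 in log2 units (adjusted p = 1.4e-09 from limma, standard error 0.06), to 56.1% of the control TPM. This is just under the fold threshold, and without day 0 si-CTL no rescue replicate 3 the change was -0.85 and was called. Spry4, on chromosome 18 from 38586247 to 38601415 (minus strand), encodes a Sprouty inhibitor and had 54.6, 44.4 and 43.6 TPM in si-CTL against 25.9, 25.5 and 23.6 TPM in si-Rsl24d1 cells. The depleted libraries were again all lower and close to each other, while replicate 1 stood above the other controls. Spry4 fell by 0.89 (standard error 0.10, adjusted p = 6e-07), and without that replicate the change was -0.79, which ended the call but not the low adjusted p.

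The receptor transcripts moved the other way. Fgfr2, on chromosome 7 from 130162451 to 133123350 (minus strand), had 11.5, 10.5 and 10.4 TPM in si-CTL and 20.7, 18.2 and 18.1 TPM in si-Rsl24d1 cells, so the groups were wide apart. It rose by 0.77 (standard error 0.09, adjusted p = 9.6e-07), or to 177% of the control. Fgfr1, on chromosome 8 from 25513654 to 25575718 (plus strand), had 59.3, 52.5 and 57.7 TPM in si-CTL against 75.8, 76.5 and 76.3 TPM in si-Rsl24d1 cells, a rise of 0.43 (standard error 0.08, adjusted p = 0.00017) with hardly any spread among the depleted libraries.

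Genes that ERK activates did not move together at day 0. Dusp6, a cytoplasmic ERK phosphatase gene on chromosome 10 from 99263231 to 99267489 (plus strand), rose by 0.34 (standard error 0.06, adjusted p = 0.00023), with 42.4, 38.8 and 35.3 TPM in si-CTL and 51.1, 50.1 and 47.2 TPM in si-Rsl24d1 cells. Etv5, on chromosome 16 from 22381309 to 22439719 (minus strand), rose by 0.38 (standard error 0.11, adjusted p = 0.0066), from 161, 137 and 131 TPM to 191, 187 and 179 TPM. In both genes every depleted library was above every control, but Etv5 missed the adjusted p when any 1 of 5 of the 6 libraries was left out (0.013 to 0.038), passing only without si-CTL replicate 1. The other 4 did not pass. Spry2, the second Sprouty gene, on chromosome 14 from 105891947 to 105896819 (minus strand), differed by 0.20 (95% interval 0.05 to 0.35, adjusted p = 0.036), the opposite sign to Spry4, and passed with median of ratios scaling (0.18, adjusted p = 0.0039). The nuclear ERK phosphatase gene Dusp4, on chromosome 8 from 34807297 to 34819894 (plus strand), differed by -0.14 (interval -0.35 to 0.06, adjusted p = 0.28). Egr1, on chromosome 18 from 34859823 to 34864984 (plus strand), differed by -0.18 (interval -0.34 to -0.01, adjusted p = 0.09). Etv4, on chromosome 11 from 101769742 to 101785371 (minus strand), was the one whose libraries overlapped, with a difference of 0.06 (interval -0.11 to 0.22, adjusted p = 0.62). The median difference of the 10 genes was 0.13, beside -0.01 over all tested genes. The summed level of the 10 pluripotency markers was 4674 to 4697 TPM in these si-Rsl24d1 and 5683 to 5834 TPM in the si-CTL libraries, with the higher mean in si-Rsl24d1 cells for 1 of the 10. For 10 primitive and extraembryonic endoderm markers, of which 4 reached 1 TPM in either group, it was 235 to 246 TPM against 207 to 223 TPM, with the higher mean in si-Rsl24d1 cells for 8 of the 10. Most of this sum was Sparc (205 against 181 TPM), while Lama1 was at 4.39 against 7.81 TPM. The mean was also higher for 5 of 9 RA response, 6 of 8 post-implantation epiblast, 5 of 8 neural progenitor and 2 of 8 fibroblast and mesenchyme markers. The part of these cell states in the pathway differences was not tested.

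**Figure D2:**
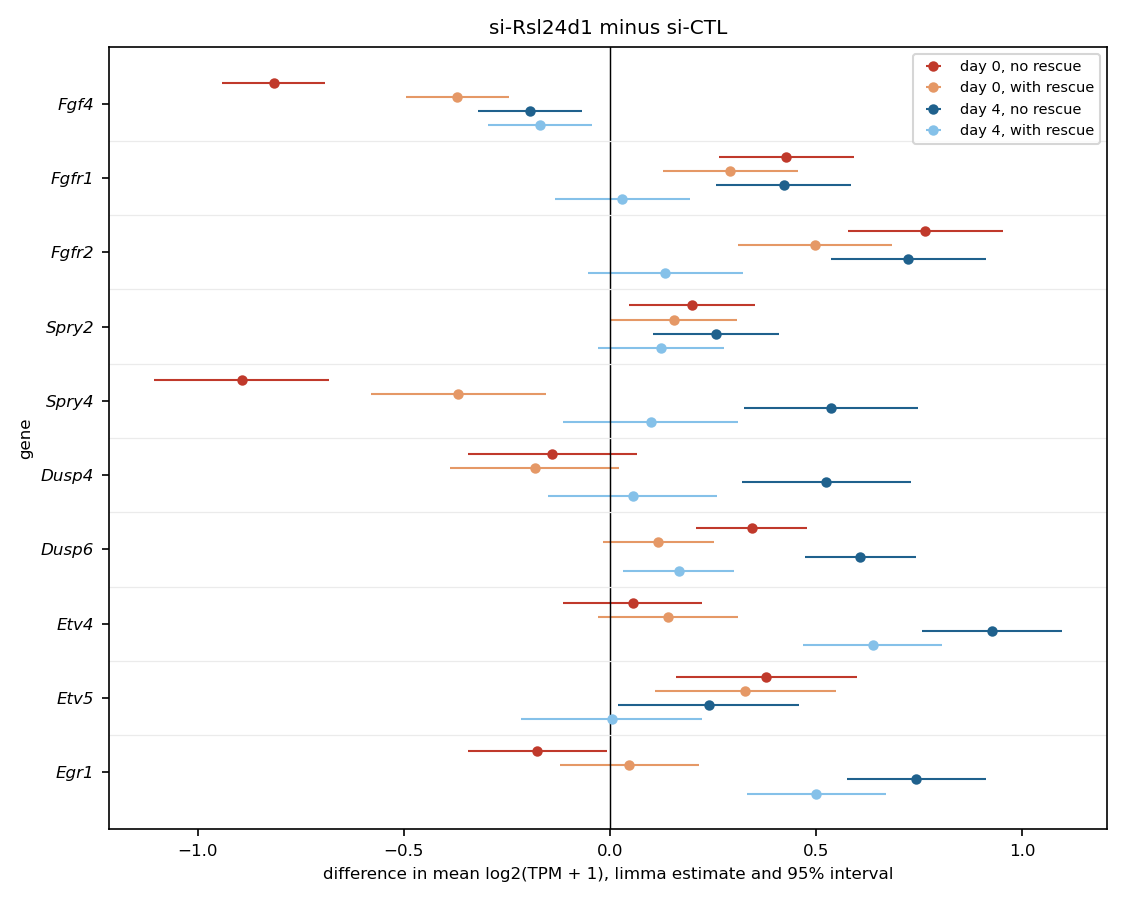
Effect of the siRNA, as si-Rsl24d1 minus si-CTL in mean log2(TPM + 1) (horizontal axis), for each gene, as the limma estimate (points) with its 95% interval (lines), on each day without and with rescue. At day 0 without rescue Fgf4 (-0.82) and Spry4 (-0.89) lie farthest to the left and Fgfr2 (0.77) farthest to the right, while at day 4 without rescue Etv4 (0.93) and Egr1 (0.74) lie farthest to the right.

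With ectopic RSL24D1 in both arms, the ligand and the receptor still differed at day 0. Of the 10 genes 2 passed and 0 were called, where 13.7% of all genes passed and 1.36% were called. At an unadjusted p below 0.05, 6 of the 10 differed, as did 32.8% of all genes. Fgf4 had 57.1, 54.5 and 52.2 TPM in si-CTL and 40.6, 40.2 and 45.3 TPM in si-Rsl24d1 cells with rescue, which do not overlap, a fall of 0.37 (standard error 0.06, adjusted p = 0.00013). Fgfr2 had 9.47, 7.66 and 7.77 TPM against 11.0, 11.6 and 13.8 TPM, and rose by 0.50 (standard error 0.09, adjusted p = 0.00039). Spry4, at 38.6, 34.7 and 33.4 TPM against 25.7, 26.1 and 30.2 TPM, differed by -0.37 (interval -0.58 to -0.16, adjusted p = 0.012) and Fgfr1 by 0.29 (interval 0.13 to 0.46, adjusted p = 0.01). Both passed with median of ratios scaling, which with Etv5 brought the number to 5, where 17.9% of all genes passed. A fit of only the 6 libraries compared left 0 of 10 past the adjusted p.

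Whether the effect of the siRNA depended on the rescue was tested as an interaction, with the same day 0 libraries. Fgf4 was the 1 gene of the 10 to pass, where 2.09% of all genes passed and 0.128% were called. The deficit of Fgf4 in depleted cells was smaller with rescue by 0.45 in log2 units (adjusted p = 0.0039, standard error 0.09), and leaving out any 1 of 6 of the 12 libraries left 0 genes past the adjusted p. For Spry4 the interaction was 0.53 (standard error 0.14, adjusted p = 0.037), and it passed with median of ratios scaling (0.51, adjusted p = 0.0059). None of the other 8 passed under either scaling, so their siRNA effects were not shown to differ with rescue.

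Read directly, rescued si-Rsl24d1 cells had more Fgf4 and less of 5 other transcripts than unrescued si-Rsl24d1 cells. Here 6 of the 10 genes passed, 1 higher and 5 lower, and 0 were called, where 15.3% of all genes passed, 3.06% as higher and 12.2% as lower, and 0.28% were called. Fgf4 rose by 0.26 with rescue (standard error 0.06, adjusted p = 0.0042), to 42.1 TPM from 35.0 TPM, short of the 62.5 TPM of si-CTL cells without rescue. Fgfr2 fell by 0.61 (adjusted p = 7.2e-05), Fgfr1 by 0.44 (adjusted p = 0.00049), Etv5 by 0.43 (adjusted p = 0.0052), Dusp6 by 0.39 (adjusted p = 0.00025) and Spry2 by 0.32 (adjusted p = 0.0034). Spry4 differed by 0.12 (interval -0.09 to 0.33, adjusted p = 0.38), with 27.3 TPM in rescued and 25.01 TPM in unrescued cells. The median of all genes was -0.11 here, and -0.002 with median of ratios scaling. With that scaling the same 6 genes passed, where 15.6% of all genes passed, 8.54% as higher. Fgf4 was then at 0.39, Fgfr2 at -0.48, Fgfr1 and Etv5 at -0.30, Dusp6 at -0.25 and Spry2 at -0.18. The numbers without that scaling rest on few libraries: without day 0 si-Rsl24d1 no rescue replicate 1, 3 genes passed, as Fgf4, Spry2 and Etv5 did not, and a fit of only these 6 libraries left 2.

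Rescued si-CTL cells, which received doxycycline and made ectopic RSL24D1 without depletion, stand beside this result. In them 0 of the 10 genes passed against si-CTL cells without rescue, as did only 0.0122% of all genes, and 0% were called, but 9 of the 10 had an unadjusted p below 0.05, as had 6739 of the 16447 tested genes. The median difference was -0.28 for the 10 genes and -0.12 for all genes, and median of ratios scaling brought the latter to -0.01 and the former to -0.13. Spry4, at 38.6, 34.7 and 33.4 TPM with rescue and 54.6, 44.4 and 43.6 TPM without, differed by -0.40 (interval -0.62 to -0.19, adjusted p = 0.025). For the receptors the means were 45.7 TPM with and 56.5 TPM without rescue for Fgfr1 and 8.30 against 10.8 TPM for Fgfr2. In the rescue groups doxycycline came together with ectopic RSL24D1, and the cells without rescue are labelled as carrying an empty vector. The parts of doxycycline, vector and ectopic RSL24D1 cannot be told apart here, and the interaction above does not separate them. At day 4 fewer of the 10 genes passed. In si-Rsl24d1 cells Etv4 fell by 0.45 (adjusted p = 0.0012) and Dusp6 by 0.34 (adjusted p = 0.0021) with rescue, 2 of the 10, where 5.17% of all genes passed and 0.0851% were called. In si-CTL cells 0 of 10 passed, where 10.2% of all genes passed and 0.0547% were called, and 3 of 10 had an unadjusted p below 0.05, beside 39% of all genes.

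The response genes among the 10 were mostly lower after 4 days of RA, and the deepest falls among the 10 were those of Spry4, Etv4 and Egr1. No day 4 cells without RA were measured here, so RA, the time in culture and any loss of LIF cannot be told apart. In si-CTL cells without rescue, 9 of the 10 genes passed, all lower at day 4, and 6 were called, where 60.9% of all genes passed, 36.7% as lower, and 15% were called, 8.24% as lower. Spry4 went from 54.6, 44.4 and 43.6 TPM at day 0 to 2.13, 2.08 and 1.91 TPM at day 4, which is 4.29% of its day 0 level and a fall of 3.99 in log2 units (adjusted p = 5.6e-17, standard error 0.10). Etv4 went from 64.6, 60.6 and 60.7 TPM to 3.06, 3.49 and 3.61 TPM, or 5.47%, a fall of 3.84 (standard error 0.08, adjusted p = 4.5e-18). The levels of both genes at day 4 were so low that the value of 1 added to the TPM makes these changes smaller than the ratio of TPM. Egr1 went from 24.4, 23.1 and 23.8 TPM to 4.72, 4.88 and 4.79 TPM, a fall of 2.09 (standard error 0.08, adjusted p = 2.2e-14), and Spry2 from 72.1, 64.6 and 62.3 TPM to 23.0, 24.1 and 24.2 TPM, a fall of 1.44 (standard error 0.07, adjusted p = 1.4e-12). For these 4 genes the day 4 libraries lay far below the day 0 libraries and within a narrow range, and for 72.5% of all tested genes the libraries of the 2 days did not overlap.

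The other genes of the set moved less. Etv5 fell by 0.97 (adjusted p = 1e-07) and kept 50.6% of its day 0 TPM, against 5.47% for Etv4, and Dusp6 fell by 0.81 (adjusted p = 1e-09) and Dusp4 by 0.73 (adjusted p = 1.9e-06). Fgf4 fell by 0.88 (adjusted p = 1.3e-10), to 33.8, 32.8 and 33.8 TPM, about the level of unrescued si-Rsl24d1 cells at day 0. With median of ratios scaling Etv5 (-0.83) and Fgf4 (-0.75) were lower but no longer called. Single libraries decided calls near the threshold, as Fgf4 (-0.85) was not called without day 0 replicate 1, and Dusp6 was called without day 0 replicate 3 (-0.88) or without day 4 replicate 1 (-0.86). The receptors moved least: Fgfr1 fell by 0.25 (adjusted p = 0.0085) and did not pass with median of ratios scaling (-0.12, adjusted p = 0.071) or without any 1 of 5 of the 6 libraries (adjusted p 0.012 to 0.041), and Fgfr2 differed by -0.10 (interval -0.29 to 0.08, adjusted p = 0.32), a sign that turned to 0.02 with that scaling.

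The same response genes fell in the other 3 conditions. Fgf4, Spry2, Spry4, Dusp6, Etv4, Etv5 and Egr1 were lower at day 4 and passed in each of the 4 conditions, and Spry4, Etv4, Egr1 and Spry2 were called in each. In si-Rsl24d1 cells without rescue 8 of the 10 passed, all lower, and 5 were called, where 55.8% of all genes passed, 26.4% as lower, and 14.1% were called, 6.22% as lower. In si-CTL cells with rescue 8 passed, 7 of them lower, and 4 were called, all lower, where 59.2% of all genes passed, 22.4% as lower and 36.8% as higher, and 15.6% were called, 4.82% as lower. The gene that passed as higher at day 4 was Fgfr2, by 0.57 (standard error 0.09, adjusted p = 1.4e-05, 8.30 against 12.7 TPM), the 1 rise of a member over time that passed. In si-Rsl24d1 cells with rescue 7 passed, all lower, and 4 were called, where 58.1% of all genes passed, 25.8% as lower, and 14.9% were called, 5.57% as lower. Spry4 fell by 2.56 without and by 2.89 with rescue in si-Rsl24d1 cells and by 3.36 in si-CTL cells with rescue, each beside 3.99 in si-CTL cells without it. Etv4 fell by 2.97, 3.40 and 3.90 in the same order. Dusp4 passed in si-CTL cells without rescue and in none of the other 3 conditions, though with median of ratios scaling it also passed in si-CTL cells with rescue (-0.38, adjusted p = 0.00014).

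**Figure D3:**
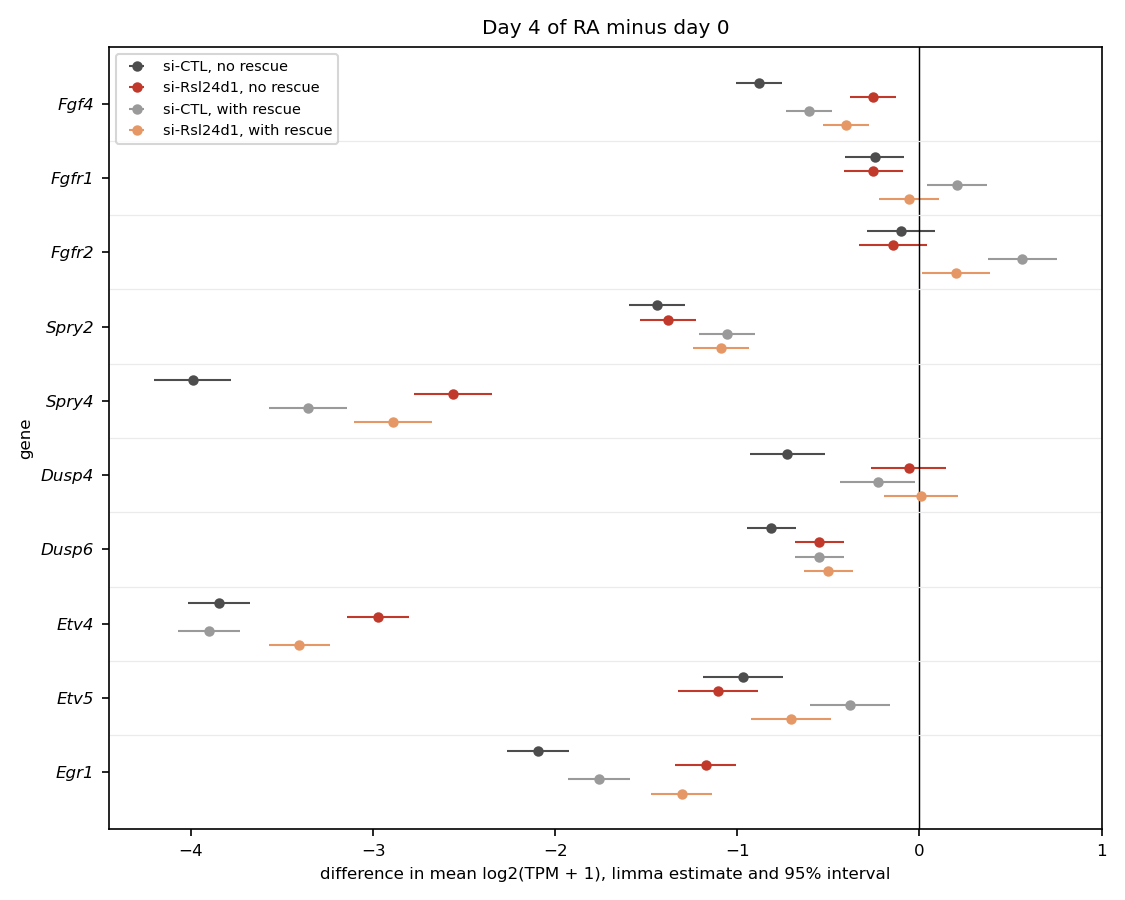
Difference between day 4 of RA treatment and day 0 in mean log2(TPM + 1) (horizontal axis) for each gene within each of the 4 conditions, as the limma estimate (points) with its 95% interval (lines). Spry4 and Etv4 lie between -2.56 and -3.99, Egr1 and Spry2 between -1.06 and -2.09, and Fgfr1 and Fgfr2 between -0.25 and 0.57.

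At day 4, si-Rsl24d1 cells without rescue kept more of the response transcripts than si-CTL cells. Of the 10 genes 8 passed, all higher, where 30.9% of all genes passed, 24.9% as higher, and 1 was called, where 1.63% of all genes were called, 1.45% as higher. The median difference was 0.53 for the 10 genes and 0.13 for all tested genes. Etv4 had 3.06, 3.49 and 3.61 TPM in si-CTL and 6.19, 7.83 and 8.10 TPM in si-Rsl24d1 cells, with the groups well apart, and rose by 0.93 (standard error 0.08, adjusted p = 7.8e-08), to 218% of the control. It still passed but was no longer called with 2 in place of 1 added to the TPM or with median of ratios scaling, where it was 0.79 each time. Egr1 had 4.72, 4.88 and 4.79 TPM against 7.58, 8.32 and 10.4 TPM, and rose by 0.74 (standard error 0.08, adjusted p = 1.2e-06). Spry4 had 2.13, 2.08 and 1.91 TPM against 2.703, 3.66 and 3.95 TPM, a rise of 0.54 (standard error 0.10, adjusted p = 0.00039) that was opposite in sign to the difference at day 0.

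Receptor and phosphatase genes were also higher. Fgfr2 rose by 0.72 (standard error 0.09, adjusted p = 5.8e-06), with 9.27, 9.89 and 10.7 TPM in si-CTL and 15.8, 18.5 and 17.1 TPM in si-Rsl24d1 cells, and Fgfr1 by 0.42 (standard error 0.08, adjusted p = 0.00033), with 49.1, 46.1 and 47.0 against 56.3, 73.1 and 63.0 TPM. Dusp6 rose by 0.61 (standard error 0.06, adjusted p = 8.8e-07), with 23.0, 21.3 and 20.6 against 31.1, 34.8 and 34.5 TPM, and Dusp4 by 0.52 (standard error 0.10, adjusted p = 0.00034), with 27.3, 28.3 and 25.3 against 33.6, 40.8 and 43.9 TPM. In each of these 4 genes every si-Rsl24d1 library was above every si-CTL library, where the groups did not overlap for 48.4% of all tested genes, and replicate 1 of si-Rsl24d1 was the nearest to the controls. Spry2 rose by 0.26 (adjusted p = 0.0082), but by 0.09 with median of ratios scaling (adjusted p = 0.13), and it passed without si-Rsl24d1 replicate 1 but not without any other of the 6 libraries (adjusted p 0.016 to 0.066). Etv5 differed by 0.24 (interval 0.02 to 0.46, adjusted p = 0.07), with overlapping libraries. Fgf4 differed by -0.19 (interval -0.32 to -0.07, adjusted p = 0.013), the only negative difference, and with median of ratios scaling it passed as lower (-0.36, adjusted p = 6.8e-07). With that scaling 7 of the 10 genes passed as higher and 1 as lower, where 29.3% of all genes passed, 14.1% as higher. In a fit of only the 6 libraries compared 4 of the 10 passed.

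Summed levels of the marker lists also differed at day 4 without rescue, most of them being higher in si-Rsl24d1 than in si-CTL cells. These sums are TPM without rescaling, and the median difference of all tested genes was 0.13 in this comparison. The summed level of 9 RA response markers, of which 7 reached 1 TPM in the si-Rsl24d1 and 5 in the si-CTL group, was 67.3 to 76.7 TPM in si-Rsl24d1 libraries and 43.3 to 49.0 TPM in si-CTL libraries without rescue. That of 10 markers of primitive and extraembryonic endoderm, of which 8 and 6 reached 1 TPM, was 536 to 645 TPM against 372 to 413 TPM. For 8 fibroblast and mesenchyme markers, all at or above 1 TPM in both groups, it was 888 to 1126 TPM against 558 to 586 TPM, and for 8 neural progenitor markers, with Neurog2 below 0.1 TPM in both, it was 50.3 to 61.8 TPM against 37.4 to 37.8 TPM. The pluripotency markers summed to 6221 to 7021 TPM against 7069 to 7259 TPM, a sum that Dppa5a dominates (4648 against 5346 TPM), while 7 of these 10 markers had the higher mean in si-Rsl24d1 cells, among them Tdgf1 (244 against 199 TPM). For 8 post-implantation epiblast markers the sum was 63.1 to 75.1 TPM against 53.5 to 58.0 TPM, 7 of them at 1 TPM or more in both groups. Their part in the higher levels of the pathway genes was not tested. Rsl24d1 mRNA itself did not differ between these groups at day 4, as given above. With rescue in both arms, 2 of the 10 genes passed at day 4, where 5.87% of all genes passed and 0.73% were called. Etv4 rose by 0.64 (standard error 0.08, adjusted p = 2.4e-05), with 2.64, 2.80 and 3.32 TPM in si-CTL and 5.15, 5.27 and 4.83 TPM in si-Rsl24d1 cells, and Egr1 by 0.50 (standard error 0.08, adjusted p = 0.00034), with 5.36, 4.65 and 5.17 against 7.54, 7.71 and 7.46 TPM. Both were clear of the controls in every library. Fgfr2, which had risen with the siRNA in the 3 other comparisons, differed here by 0.13 (interval -0.05 to 0.32, adjusted p = 0.39).

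Whether the effect of the siRNA differed between the days was tested as an interaction without rescue, in the 12 libraries already described, so it is not a second set of evidence. Of the 10 genes 5 passed, all with a more positive difference at day 4 than at day 0, and 3 were called, where 30.9% of all genes passed, 22.1% as more positive, and 5.61% were called, 2.9% as more positive. Spry4 had the largest value, 1.43 (standard error 0.14, adjusted p = 2.2e-07), as it was lower in si-Rsl24d1 cells at day 0 and higher at day 4. For Egr1 the value was 0.92 (standard error 0.11, adjusted p = 3.3e-06) and for Etv4 0.87 (standard error 0.11, adjusted p = 6.4e-06), and their differences did not pass at day 0. Dusp4 (0.67, adjusted p = 0.00075) and Fgf4 (0.62, adjusted p = 1.1e-05) passed too, Fgf4 because its deficit at day 0 was smaller at day 4. With median of ratios scaling, with 2 added to the TPM or without day 4 si-Rsl24d1 no rescue replicate 3, only Spry4 was still called. The call of Etv4 was also lost without any 1 of 4 other libraries, namely replicate 1 of si-CTL on either day, of si-Rsl24d1 at day 0, or replicate 2 of si-Rsl24d1 at day 4, with values of 0.82 to 0.85. The receptors, higher in si-Rsl24d1 cells on both days, gave interactions of -0.01 for Fgfr1 (interval -0.24 to 0.22, adjusted p = 0.97) and -0.04 for Fgfr2 (interval -0.31 to 0.22, adjusted p = 0.82), neither of which passed.

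A wider list of 77 genes of the pathway, of which 76 were in the table and 72 were tested, was read by role in the same comparisons. At day 0 without rescue 29 of the 72 passed, 18 higher and 11 lower, and 6 were called, where 30.4% of all genes passed, 14.3% as higher and 16.1% as lower, and 4.18% were called. The median difference of the 72 was -0.02, beside -0.01 for all genes. By role, 6 of 8 ligands, 10 of 19 transcription factors and response genes, 4 of 11 genes of the kinase cascade, 2 of 11 adaptors and Ras genes, 2 of 7 receptors and cofactors and 5 of 16 inhibitors passed, and differences between roles were not tested. The ligand gene Fgf17 fell by 1.48 (7.84 against 23.7 TPM, adjusted p = 1.1e-11), like Fgf4, whereas Fgf18 rose by 1.10 (4.27 against 1.47 TPM, adjusted p = 2.6e-07). Among genes with the largest rise were Fosl1 (1.84, adjusted p = 3.3e-11, 7.81 against 1.48 TPM) and Jun (1.05, adjusted p = 4.2e-10, 20.3 against 9.27 TPM), which encode parts of the AP-1 factor, and the phosphatase gene Dusp2 (1.38, adjusted p = 1.6e-09, 5.58 against 1.52 TPM). Of the 6 called genes 3 were ligands, 1 was an inhibitor and 2 were response genes, and only among the ligands were there calls in both directions.

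At day 4 without rescue, 33 of the 72 genes passed between si-Rsl24d1 and si-CTL cells, 32 of them higher, where 30.9% of all genes passed, 24.9% as higher. With median of ratios scaling 22 passed as higher and 5 as lower, where 29.3% of all genes passed, 14.1% as higher. Without that scaling the inhibitors (10 of 16) and the transcription factors and response genes (10 of 19) held most of the 33, with 1 of 8 ligands, 2 of 7 receptors and cofactors, and 5 of 11 in each of the other roles. The median difference of the 72 genes was 0.30, and 0.16 with that scaling, beside 0.13 and 0.00 for all genes. Of the 72, 4 were called, all higher, where 1.63% of all genes were called, 1.45% as higher. They were Myc (0.93, adjusted p = 1.3e-08, 8.89 against 4.17 TPM), Ets1 (0.93, adjusted p = 4.7e-06, 12.5 against 6.06 TPM), Rps6ka3 (0.92, adjusted p = 3.9e-07, 37.2 against 19.2 TPM), which encodes an ERK-activated kinase, and Etv1 (0.89, adjusted p = 1.5e-05, 9.25 against 4.53 TPM), the third member of the Etv4 and Etv5 family. Over the 4 days of RA in si-CTL cells without rescue, 53 of the 72 passed, 42 of them lower, where 60.9% of all genes passed, 36.7% as lower, and 11 were called, a share like the 15% called among all genes. All 11 were lower, where 8.24% of all genes were called as lower. The largest falls were those of Myc (-2.86, 36.4 to 4.17 TPM, adjusted p = 4.5e-17), Fgf17 (-2.52, 23.7 to 3.33 TPM, adjusted p = 1e-15), Ccnd1 (-2.40, 65.8 to 11.7 TPM, adjusted p = 1.7e-15) and Fgf15 (-2.08, 7.88 to 1.10 TPM, adjusted p = 1.7e-14). Myc and Ccnd1 encode growth regulators whose transcription ERK signalling is known to raise. The other conditions were more even. In si-Rsl24d1 cells without rescue 22 passed as lower and 20 as higher, where 55.8% of all genes passed, 26.4% as lower. In si-CTL cells with rescue it was 23 and 24 (59.2%, 22.4% as lower), and in si-Rsl24d1 cells with rescue 22 and 16 (58.1%, 25.8% as lower). Calls went both ways in each. In that order they were 10 lower and 4 higher, 8 and 6, and 10 and 5. Of all genes 14.1%, 15.6% and 14.9% were called. In the interaction of siRNA and day 40 of the 72 passed, 31 of them positive, where 30.9% of all genes passed, 22.1% as positive. With median of ratios scaling 39 passed, 26 of them positive, where 28.9% of all genes passed, 15.8% as positive. With rescue in both arms, 19 of the 72 passed between si-Rsl24d1 and si-CTL at day 0, where 13.7% of all genes did, and 4 at day 4, where 5.87% did.

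**Figure D4:**
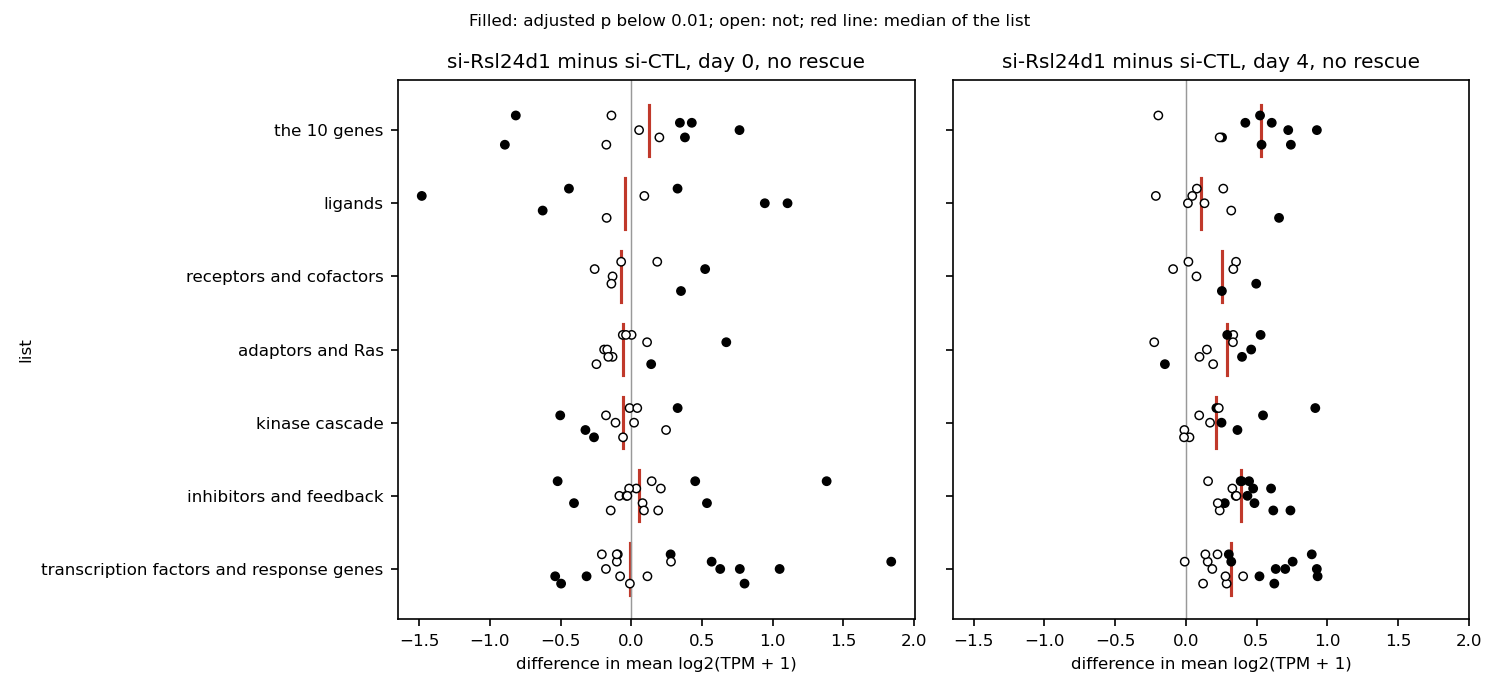
Effect of the siRNA without rescue, as si-Rsl24d1 minus si-CTL in mean log2(TPM + 1) (horizontal axis), for the 10 genes and for the 72 other tested pathway genes by role, at day 0 (left) and day 4 (right). Filled points passed an adjusted p of 0.01, open points did not, and red lines are medians, which for the 10 genes are 0.13 at day 0 and 0.53 at day 4.

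The 10 genes fell into patterns that other genes shared. Over the 8 group means, the 3 genes closest to each of 8 of them by Pearson correlation were sought among 4339 genes whose group means spanned at least 1 on the log2 scale, as a description only, since 4 of the 8 means come from each day. Spry4 was closest to Bspry (r = 0.999), Armc6 (0.998) and Dnmt3b (0.998), and Etv4 to Irak3 (0.998), Naprt (0.998) and Tubb3 (0.997). Egr1 was closest to Spop (0.997), Tubb3 (0.997) and Akr1b8 (0.996), so that Tubb3 was near to both. Etv5 was closest to Pkp4 (0.995), Rpusd2 (0.995) and Gm47164 (0.994). The receptors followed other genes, Fgfr1 being closest to Adnp (0.976), Rnf169 (0.966) and Ahnak2 (0.962), and Fgfr2 to Trio (0.967), Jun (0.966) and Ahnak2 (0.963). For Dusp6 the closest were Gm50241 (0.990), Slc30a2 (0.989) and Slc5a5 (0.989), and for Dusp4 Tle3 (0.949), Ino80d (0.938) and Gm21742 (0.934), the loosest of these 8.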

How the data were processed

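RNA-Seq values of 24 libraries were deposited by the authors as log2 of TPM + 1, made per the study's methods with Salmon against a mouse transcript index and summed to genes with tximport; the submitters' processing notes name STAR 2.7.8a and Salmon 1.4.0. The sources disagree on the library kit (total RNA or poly-A), on the build (the methods name GRCm38, the notes a human build) and on hours after transfection, and counts were not used here, so no counting error can be given. Groups and replicate numbers came from the sample labels. Genes with a mean of at least 0.5 over 24 libraries (16447 of 54242) were fitted with 8 group means in limma 3.58.1 (R 4.3.3, mean-variance trend, all libraries), and p-values were adjusted over these genes by the Benjamini-Hochberg method. The fit was tested on simulated data. A gene was called differentially expressed where it changed more than 1.8-fold with an adjusted p under 0.01. The tests are two-sided, intervals are 95% limma intervals, and an exact permutation test of 3 against 3 libraries could not go below p = 0.1.

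The 10 genes, the wider pathway list and the 6 marker lists (ESC pluripotency, RA response, primitive and extraembryonic endoderm, post-implantation epiblast, neural progenitor, fibroblast and mesenchyme) were chosen with earlier results of these data known. All 10 genes are named in the text, and of the wider list at most 4 genes a direction and comparison, those called with the largest change and libraries that do not overlap. Gene positions are the whole spans of the GRCm38 annotation and promoters those of RefSeq. For Fgf4 and Fgfr2 the annotated span begins upstream of the RefSeq promoter window (chr7:144861136-144861385 and chr7:130266809-130267058). Same-numbered libraries did not deviate together (mean correlation -0.0173 over 84 pairs, against 0.00865 over 168 pairs with other numbers), so the numbers were not taken as pairs. Alternatives were 0.1 or 2 in place of 1 added to the TPM, median of ratios scaling, stricter and no filters, only the groups compared, no fold threshold, the replicate block and each library left out. The genes closest in pattern to Fgf4 and Spry2 are not reported here.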

Additional observations from a re-analysis of the deposited data

Results flagged for a closer look

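Between the 2 days, the effect of si-Rsl24d1 without rescue differed by the interaction test of limma for 5 of the 10 genes, each with a more positive difference at day 4 and an adjusted p below 0.01. The interaction was 1.43 for Spry4, 0.92 for Egr1, 0.87 for Etv4, 0.67 for Dusp4 and 0.62 for Fgf4, in log2 units. At day 0 the effect on Fgf4 also differed between cells without and with rescue, by 0.45. Groups of 3 libraries were not tested for single outlying samples.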

How the results depend on the processing

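Without a fold threshold (an alternative chosen after seeing the data), the number of the 10 genes called for si-Rsl24d1 against si-CTL was 6 in place of 1 at day 0 and 8 in place of 1 at day 4 without rescue, and 2 in place of 0 on each day with rescue. For rescue in si-Rsl24d1 cells it was 6 at day 0 and 2 at day 4 in place of 0, for day 4 against day 0 it was 8 in place of 5 in si-Rsl24d1 cells, 8 in place of 4 in si-CTL cells with rescue and 7 in place of 4 in si-Rsl24d1 cells with rescue, and for the interactions 5 in place of 3 (day) and 1 in place of 0 (rescue). The shares of all genes past the adjusted p stand with each comparison above. With 2 added to the TPM and with median of ratios scaling, 0 in place of 1 were called at day 4 without rescue and 1 in place of 3 in the interaction with day. In a fit of only the groups compared, the number past the adjusted p was 0 in place of 2 at day 0 with rescue, 4 in place of 8 at day 4 without rescue, 2 in place of 6 and 0 in place of 2 for rescue in si-Rsl24d1 cells at day 0 and day 4, and 0 in place of 1 in the interaction with rescue, with fewer libraries behind the spread. The shares of all genes in such fits are not given here. With median of ratios scaling the number past the adjusted p was 5 in place of 2 at day 0 with rescue, where 17.9% of all genes passed. It was 1 in place of 0 for rescue in si-CTL cells at day 4, where 11.2% passed, and 2 in place of 1 in the interaction with rescue, where 3.02% passed. Fgfr2 at day 4 against day 0 in si-CTL cells turned from -0.10 to 0.019. The cause of these shifts was not tested.

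With single libraries left out, the genes called ran from 0 (without day 0 si-CTL no rescue replicate 1) to 2 (without its replicate 3) for the siRNA at day 0, and from 1 (without day 4 si-Rsl24d1 no rescue replicate 3) to 3 in the interaction with day. The genes past the adjusted p ran from 3 (without day 0 si-Rsl24d1 no rescue replicate 1) to 6 for rescue in si-Rsl24d1 cells at day 0, from 1 to 3 at day 4, and from 0 to 1 in the interaction with rescue. At day 4 it was 1 without replicate 2 or 3 of the unrescued or replicate 1 or 2 of the rescued si-Rsl24d1 cells. In the interaction it was 0 without replicate 1 or 2 of unrescued si-CTL, replicate 3 of unrescued or of rescued si-Rsl24d1, or replicate 2 or 3 of rescued si-CTL cells. The interactions of the receptors with day, close to 0, ran from -0.10 to 0.082 for Fgfr1 and from -0.096 to 0.020 for Fgfr2 and did not pass. With the replicate block 1 gene was still called for the siRNA at day 0 without rescue and no call moved in any comparison, but 5 in place of 6 passed there, 7 in place of 8 at day 4, and for day 4 against day 0 without rescue 8 in place of 9 in si-CTL and 7 in place of 8 in si-Rsl24d1 cells. Without single libraries, the adjusted p was also missed by Fgfr1 at day 4 against day 0 in si-Rsl24d1 cells (5 of 6 libraries, up to 0.065) and by Etv5 in si-CTL cells with rescue (4 of 6, up to 0.029).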
